A study of Mus musculus with 4 samples.

Results

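Trp53, which encodes the tumour suppressor p53, and 9 genes that p53 is known to switch on directly were followed in the mouse mammary carcinoma line 4T1. The targets were Cdkn1a, Mdm2, Ccng1, Trp53inp1, Sesn1, Zmat3, Phlda3, Btg2 and Gadd45a. The genes were taken by name, and all 10 were found among the 53647 genes of the deposited tables and passed the filter on low counts. RNA was sequenced from 2 libraries of cells given uniSTING mRNA, which codes for a synthetic STING mimic, and from 2 libraries of cells given EGFP mRNA, called Mock, which codes for a fluorescent protein. Both groups are labelled WT and come from the same line, grown in the same way. A transfection reagent (TransIT-mRNA) and SS-OP lipid nanoparticles are both named as carriers, with no statement of which library had which, and dose and time are not labelled. Type I interferon signalling was the main question, with other downstream pathways of the tumour cells looked at without a prior choice.

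p53 is a transcription factor that is held low by the ubiquitin ligase MDM2, itself a p53 target, and is stabilised when DNA is damaged or cells are stressed. It then raises genes for cell cycle arrest, repair, cell death and metabolism, of which Cdkn1a, encoding the CDK inhibitor p21, is the best known. It binds DNA at a response element made of a pair of 10-base units, called decamers here. The 4T1 line has been described as lacking functional p53, and several of the 10 genes are also known to be raised by other factors, such as FOXO proteins and stress kinases, so that their transcripts are no direct readout of p53 protein.

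The promoters of 4 members are shown because each holds at least 1 match to the p53 decamer. The genes behaved differently here: Ccng1 and Mdm2 rose, Trp53 fell and Cdkn1a did not pass the test. The Mdm2 window holds no full element. Each sequence runs from 250 bases before to 50 bases after a RefSeq transcription start (GRCm38.p6, 5′ to 3′ on the strand of the gene), and capitals mark matches to the p53 decamer consensus or to the full element of 2 adjoining decamers with up to 3 mismatches. The first of the 2 Cdkn1a windows (chr17:29090729-29091028, plus strand), followed by Ccng1 (chr11:40755237-40755536, minus strand), Mdm2 (chr10:117710709-117711008, minus strand) and Trp53 (chr11:69580109-69580408, plus strand), read:
Cdkn1a: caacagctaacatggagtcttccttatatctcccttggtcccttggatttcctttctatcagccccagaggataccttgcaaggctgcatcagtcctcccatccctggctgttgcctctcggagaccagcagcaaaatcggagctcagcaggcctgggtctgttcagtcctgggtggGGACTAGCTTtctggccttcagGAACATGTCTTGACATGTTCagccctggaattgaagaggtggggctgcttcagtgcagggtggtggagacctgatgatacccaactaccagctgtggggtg
Ccng1: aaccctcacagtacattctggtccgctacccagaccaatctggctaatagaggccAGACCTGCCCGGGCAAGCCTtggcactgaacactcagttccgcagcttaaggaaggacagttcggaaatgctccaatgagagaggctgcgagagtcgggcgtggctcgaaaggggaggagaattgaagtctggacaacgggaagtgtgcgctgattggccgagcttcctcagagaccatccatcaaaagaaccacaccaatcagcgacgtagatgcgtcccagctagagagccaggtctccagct
Mdm2: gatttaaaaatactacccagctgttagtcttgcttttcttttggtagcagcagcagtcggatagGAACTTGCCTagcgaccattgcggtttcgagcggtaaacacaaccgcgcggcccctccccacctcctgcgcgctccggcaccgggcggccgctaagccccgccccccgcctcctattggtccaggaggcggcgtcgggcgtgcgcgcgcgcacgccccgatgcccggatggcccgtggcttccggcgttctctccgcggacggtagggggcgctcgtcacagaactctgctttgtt
Trp53: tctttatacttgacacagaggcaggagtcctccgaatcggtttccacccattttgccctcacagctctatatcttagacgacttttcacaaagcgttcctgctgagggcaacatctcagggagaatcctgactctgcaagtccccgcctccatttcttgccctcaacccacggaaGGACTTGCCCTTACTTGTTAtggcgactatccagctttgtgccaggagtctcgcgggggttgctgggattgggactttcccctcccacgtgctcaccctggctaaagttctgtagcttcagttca

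The Cdkn1a window shown holds a full element with 1 mismatch, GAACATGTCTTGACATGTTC, at positions -51 to -32 from that start. The second Cdkn1a window, at a start further downstream (chr17:29093519-29093818, plus strand), holds no decamer and no full element. The Ccng1 window holds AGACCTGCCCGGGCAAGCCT, with 1 mismatch, at -195 to -176. The Trp53 match has 3 mismatches, and the Mdm2 window has a single decamer, GAACTTGCCT, at -186 to -177. RefSeq windows were at hand for 8 members (10 windows in all), and a decamer was found in 6 of the 10 windows and a full element in 4, those of Cdkn1a, Ccng1, Trp53 and Sesn1. For Sesn1 the full element was in the second of 2 windows, and the first held no match. Among all 32851 mouse promoter windows of the same length, 8.36% held a decamer and 1.38% a full element. The decamer was searched by its consensus, which reads the same on both strands, and matches of decamers and full elements overlap by construction. The core of the interferon-stimulated response element (GAAA, any 2 bases, GAAA, on either strand) and the STAT motif TTCNNNGAA, which is its own reverse complement, were found in none of the 10 windows, against 3.44% and 8.30% of all windows. At such shares, 10 windows are too few to show a lack of either motif. All matches given here are of letters in a 300-base window, not shown binding sites.

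Levels are given in CPM, counts per 1000000 counts of the scaled library. Total counts were 18843543 and 25071840 in the uniSTING libraries and 17502694 and 22039546 in the Mock libraries. The libraries of a group differed from each other by 1.51 (uniSTING) and 1.47 (Mock) times the variance that counting alone gives, against 14.5 and 17.1 times between groups. The labels number them as preparations and do not say that they came from separate cultures, and the file headers give the libraries of a group a shared code with separate L numbers, whose meaning is not stated. They may be separate libraries of 1 RNA or separate runs, so the p-values reflect just the spread among these 4 libraries, and that spread may be technical. The 7 epithelial markers, Krt8 and Epcam among them, summed to 4857 and 4870 CPM in uniSTING and 4681 and 4743 CPM in Mock. Of the other cell types, the 12 markers of leukocytes, fibroblasts and endothelium summed to 14.6 and 10.0 CPM in uniSTING and 12.5 and 8.28 CPM in Mock, with Itgam at 0 in all libraries. Pdgfra made up most of that sum, at 8.91 and 8.56 CPM in uniSTING and 7.15 and 6.38 CPM in Mock. The part of such cells in the results was not tested.

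Mdm2, Ccng1 and Trp53inp1 rose in uniSTING, by 1.23- to 1.54-fold, while Trp53 itself and Zmat3 fell to 0.873 and 0.782 of their Mock levels. Cdkn1a, Sesn1, Phlda3, Btg2 and Gadd45a did not pass the test. The calls of Trp53, Zmat3 and Trp53inp1 were each lost under some alternative, given with each gene. None of the 10 changed as much as 2-fold. The calls, 3 higher and 2 lower, are at an adjusted p under 0.05 (edgeR quasi-likelihood test, Benjamini-Hochberg adjustment over 12972 genes). Of all genes tested, 50.2% passed this test, 24.9% higher and 25.4% lower, and the members' shares, 5 of 10 in all, 3 higher and 2 lower, lie near these. The median log2 fold change of the 10 members was 0.07, beside 0.006 over all tested genes. In whole-culture RNA, fewer cells with a transcript and less of it per cell cannot be told apart.

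**Figure D1:**
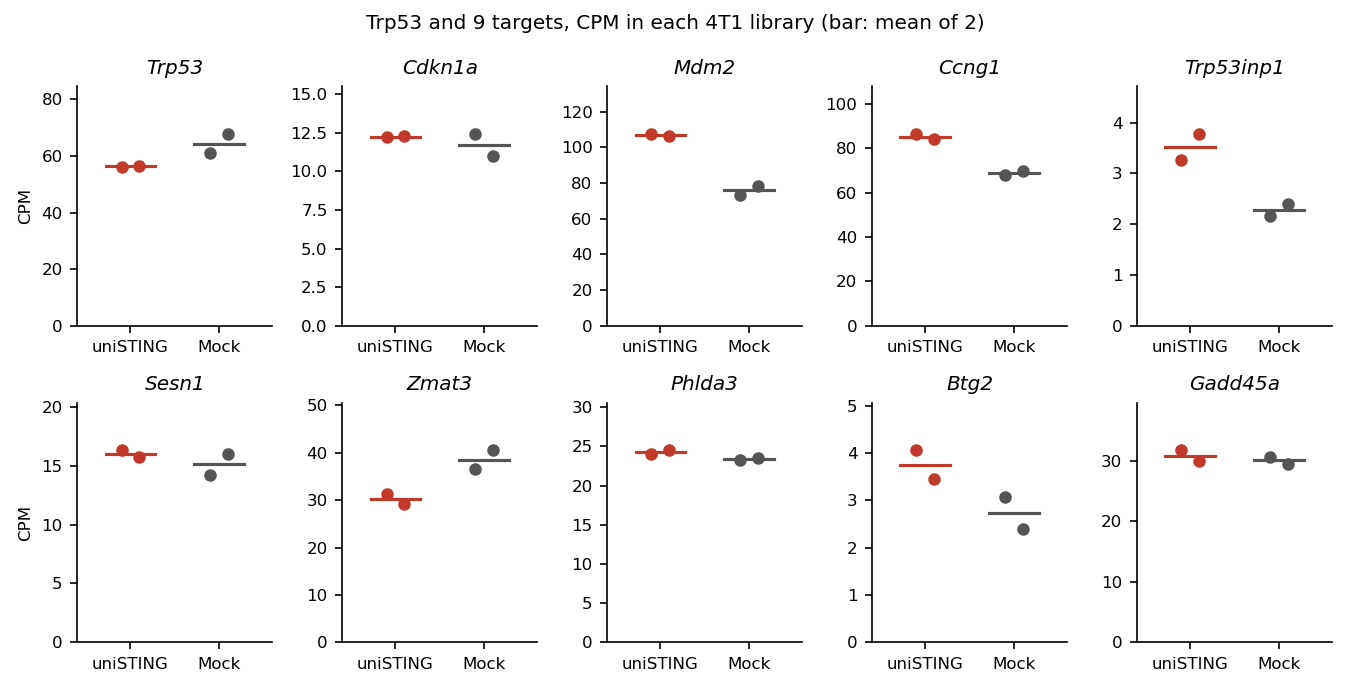
CPM on the TMM-scaled library size (linear axis from 0) of Trp53 and 9 targets in each of the 4 libraries, with uniSTING in red and Mock in grey, a point per library and a bar at the mean of 2. Mdm2, Ccng1 and Trp53inp1 lie higher in uniSTING in both libraries, Trp53 and Zmat3 lower, and the points of Cdkn1a, Sesn1 and Gadd45a overlap between groups.

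Trp53 (ENSMUSG00000059552, chromosome 11, 69471185 to 69482699, GRCm39, plus strand) was read by 1054 and 1403 counts in the uniSTING libraries and by 1075 and 1497 counts in the Mock libraries. That is 56.3 and 56.4 CPM in uniSTING, against 61.0 and 67.7 CPM in Mock. Both uniSTING libraries lay below both Mock libraries, and the Mock libraries differed from each other by more than the nearer of them differed from uniSTING. The log2 fold change was -0.20 (SE 0.06, 95% interval -0.32 to -0.07, adjusted p = 0.0128), and it was -0.12 between the libraries numbered 1 and -0.26 between those numbered 2. The fall rests on Mock replicate 2, without which it was -0.12 and did not pass (adjusted p = 0.188). No exon base of Trp53 is shared with another annotated gene. Wrap53, its neighbour, which encodes a telomerase and Cajal body factor and was named after its values were seen, was 24.5 and 26.2 CPM in uniSTING and 18.2 and 21.4 CPM in Mock, a rise by 0.35 on the log2 scale (SE 0.09, adjusted p = 0.0058 with edgeR).

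The genes with a profile over the 4 libraries nearest to that of Trp53, by Euclidean distance of centred log2 CPM among 10787 named genes, were Fbxo5, which encodes an inhibitor of the anaphase-promoting complex, Ttl, a tubulin tyrosine ligase gene, and Pgghg. Their distances were 0.015 to 0.0168 on the log2 scale. Fbxo5 had 52.2 and 52.5 CPM in uniSTING and 56.2 and 63.3 CPM in Mock. With 4 libraries, such likeness is a description only.

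Mdm2, the ubiquitin ligase gene through which p53 limits itself (chromosome 10, 117524780 to 117546663, minus strand), had the smallest adjusted p of the 10. It had 2014 and 2653 counts in uniSTING and 1297 and 1737 counts in Mock. The levels were 107.5 and 106.6 CPM in uniSTING, against 73.6 and 78.6 CPM in Mock, without overlap. The rise was 1.40-fold, a log2 fold change of 0.49 (SE 0.04, 95% interval 0.41 to 0.57, adjusted p = 1.31e-06), and it was 0.55 between the libraries numbered 1 and 0.44 between those numbered 2. It stood at percentile 80.4 of all tested genes by absolute fold change. The ratio of Mdm2 to Trp53 per kilobase of exon was 1.52 and 1.505 in uniSTING and 0.960 and 0.923 in Mock.

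Mdm4, the Mdm2 paralog whose protein masks p53 without being a strong ligase itself, had 43.1 and 46.0 CPM in uniSTING and 50.8 and 53.4 CPM in Mock. It fell by 0.23 (SE 0.06, adjusted p = 0.00888). Mdm4 has 14798 bases of exon, and its fold change was 0.07 and did not pass once the trend of counts with gene length was removed. The ratio of Mdm2 to Mdm4 per kilobase was 7.27 and 6.75 in uniSTING and 4.22 and 4.28 in Mock. These ratios are as counted, without removal of that trend.

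Ccng1, encoding cyclin G1, a p53 target that feeds back on MDM2 (chromosome 11, 40639379 to 40646138, minus strand), had 1619 and 2092 counts in uniSTING and 1199 and 1541 in Mock. Its levels were 86.4 and 84.0 CPM in uniSTING, against 68.0 and 69.7 CPM in Mock, again without overlap. The log2 fold change was 0.30 (SE 0.04, 95% interval 0.22 to 0.39, adjusted p = 4.49e-05), or 1.23-fold. With trends of length and GC content removed it was 0.12 and still passed (adjusted p = 0.0222). Its paralog Ccng2, known in human cells as a FOXO target, had 61.1 and 60.6 CPM in uniSTING and 36.3 and 35.7 CPM in Mock, a rise by 0.76 (SE 0.05, adjusted p = 8.50e-07).

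Cdkn1a (chromosome 17, 29309950 to 29319701, plus strand), the p21 gene and the classical marker of p53 activity, did not pass. It had 229 and 306 counts in uniSTING and 219 and 243 counts in Mock, which is 12.2 and 12.3 CPM in uniSTING, against 12.4 and 10.996 CPM in Mock. The uniSTING values lay within the range of the Mock values. The log2 fold change was 0.07 (SE 0.10, adjusted p = 0.577), with a 95% interval of -0.14 to 0.28. The related CDK inhibitor gene Cdkn1b, which encodes p27, had 142.3 and 145.2 CPM in uniSTING and 127 and 123 CPM in Mock, and rose by 0.20 (SE 0.03, adjusted p = 1.66e-04). Per kilobase, Cdkn1b was 9.09 and 9.22 times the level of Cdkn1a in uniSTING and 7.97 and 8.75 times in Mock. Of the exon bases of Cdkn1a, 7.68% are shared with a gene on the opposite strand that had no count. Cdkn1c, encoding p57, had no count in uniSTING and 2 counts in Mock.

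Btg2, an antiproliferative gene induced by p53 and by growth factor signals (chromosome 1, 134002908 to 134006858, minus strand), was scarce. It had 76 and 86 counts in uniSTING and 54 and 53 counts in Mock, or 4.06 and 3.46 CPM in uniSTING, against 3.06 and 2.40 CPM in Mock. The groups did not overlap, but the log2 fold change of 0.46 (SE 0.21) did not pass (adjusted p = 0.0893). The ratio of summed counts was 1.38, with an exact 95% binomial interval of 1.07 to 1.78 that covers counting error only. Btg1, its most abundant paralog, had 360.5 and 365 CPM in uniSTING and 241.5 and 251 CPM in Mock and rose by 0.56 (SE 0.02). Btg3 rose by 0.48 and Tob1 by 0.44, Tob2 did not pass (-0.11, adjusted p = 0.382), and Btg4 had 10 counts in uniSTING and none in Mock.

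Gadd45a, whose product acts in growth arrest and DNA repair (chromosome 6, 67012080 to 67014441, minus strand), had 31.7 and 29.9 CPM in uniSTING, against 30.6 and 29.5 CPM in Mock. The groups overlapped, and the log2 fold change was 0.03 (SE 0.07, 95% interval -0.12 to 0.19, adjusted p = 0.709). Of its exon bases, 19.1% are shared with the antisense gene E230016M11Rik, which had 7 counts over the uniSTING libraries and 8 over the Mock libraries. Neither Gadd45b (102.7 and 102.0 CPM in uniSTING, 102.5 and 109 CPM in Mock) nor Gadd45g (9.45 and 8.28 CPM in uniSTING, 8.40 and 8.55 CPM in Mock) passed. Gadd45b passed as lower once the length trend was removed (log2 fold change -0.24).

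Trp53inp1, which encodes a p53-induced nuclear protein of the stress and autophagy response (chromosome 4, 11156431 to 11174379, plus strand), was the scarcest member. It had 61 and 94 counts in uniSTING and 38 and 53 counts in Mock, or 3.26 and 3.78 CPM in uniSTING, against 2.16 and 2.40 CPM in Mock. Both uniSTING libraries lay above both Mock libraries. The log2 fold change of 0.63 was the largest among the 10 members, with a wide 95% interval (0.17 to 1.09, SE 0.21, adjusted p = 0.0277). This call was lost with DESeq2 (adjusted p = 0.173), with length and GC trends removed, and without uniSTING replicate 2, Mock replicate 1 or Mock replicate 2 (adjusted p from 0.0671 to 0.171). Its paralog Trp53inp2 had 12.6 and 11.6 CPM in uniSTING and 9.70 and 7.69 CPM in Mock, a rise by 0.48 (SE 0.12, adjusted p = 0.00744) that did not pass without Mock replicate 2 (0.31).

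Sesn1, encoding the stress-induced mTORC1 inhibitor sestrin 1 (chromosome 10, 41685931 to 41784420, plus strand), had 16.3 and 15.7 CPM in uniSTING, against 14.2 and 16.02 CPM in Mock. The groups overlapped, with a log2 fold change of 0.08 (SE 0.09, 95% interval -0.11 to 0.27, adjusted p = 0.478). Sesn2, the paralog induced by both p53 and the ATF4 stress response, went down. It had 17.5 and 18.1 CPM in uniSTING and 28.8 and 28.7 CPM in Mock, a fall by 0.69 (SE 0.07, adjusted p = 1.12e-05). Sesn3 had 45.5 and 47.8 CPM in uniSTING and 42.0 and 41.9 CPM in Mock and narrowly missed the threshold (0.15, adjusted p = 0.0506), which it passed with the length trend removed (0.46). Per kilobase, Sesn2 was 1.23 and 1.32 times the level of Sesn1 in uniSTING and 2.32 and 2.05 times in Mock.

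Zmat3 (chromosome 3, 32388941 to 32420163, minus strand), which encodes an RNA-binding zinc finger protein, had 587 and 724 counts in uniSTING and 644 and 894 counts in Mock. Its levels were 31.3 and 29.1 CPM in uniSTING, against 36.5 and 40.5 CPM in Mock, without overlap. The log2 fold change was -0.36 (SE 0.07, 95% interval -0.52 to -0.19, adjusted p = 0.00232). With 11435 bases of exon Zmat3 is the longest member, and long genes were lower in uniSTING at large (Spearman rho of fold change and exon length -0.357 across 12972 genes, which are not independent). At its length the trend over all genes lay at -0.22, and with the trend removed the value was -0.13 and did not pass (adjusted p = 0.171). Its paralog Zmat1 had 31 counts in uniSTING and 26 in Mock and did not pass.

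Phlda3, encoding a pleckstrin-homology protein that restrains AKT (chromosome 1, 135693857 to 135696874, plus strand), had 24.1 and 24.5 CPM in uniSTING, against 23.2 and 23.5 CPM in Mock. The groups did not overlap, yet the difference of 0.05 on the log2 scale was small beside its error (SE 0.07, 95% interval -0.10 to 0.20, adjusted p = 0.537). CPM of both uniSTING libraries lay above both Mock libraries in 37.8% of all tested genes, and below them in 37.3%. Its paralogs Phlda1, with 26.5 and 27.7 CPM in uniSTING and 20.9 and 21.6 CPM in Mock, and Phlda2, with 23.1 and 21.3 CPM in uniSTING and 14.6 and 16.2 CPM in Mock, rose by 0.35 and 0.52.

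**Figure D2:**
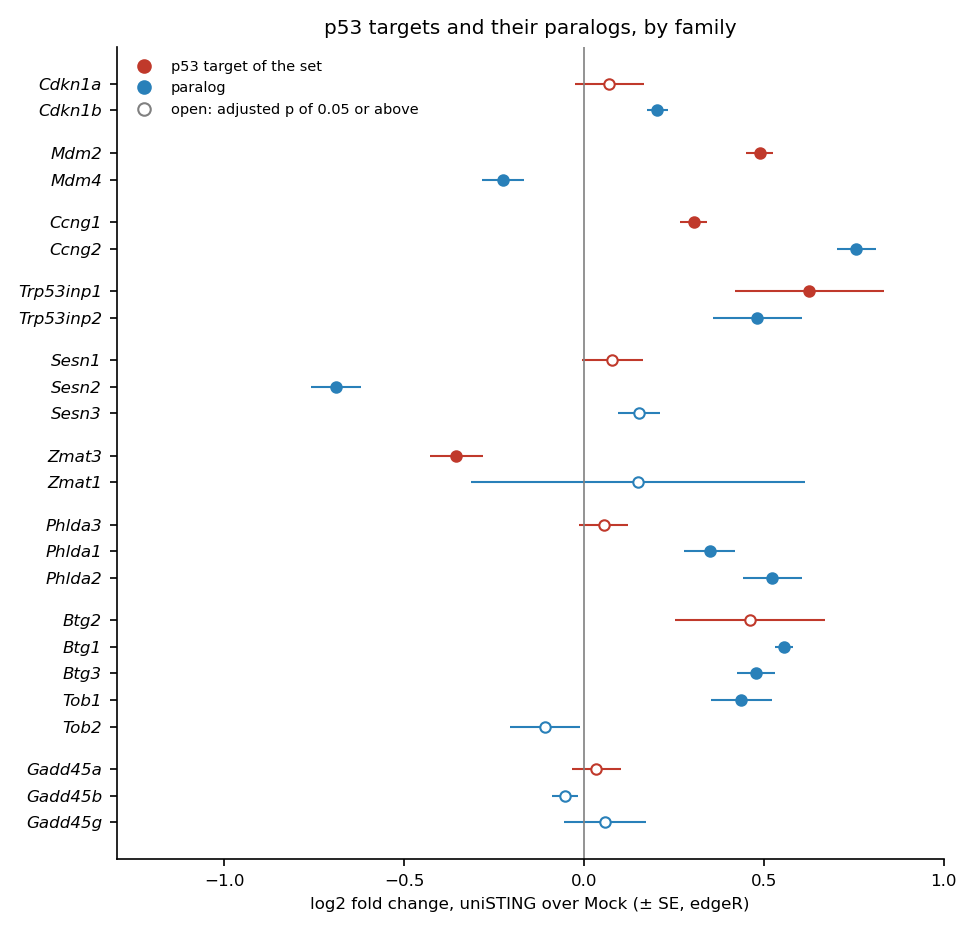
Log2 fold change of uniSTING over Mock (points, bars ± SE from edgeR) for the 9 p53 targets in red and their tested paralogs in blue, grouped by family, with open points where the adjusted p was 0.05 or above. Values are as counted. Mdm2 and Mdm4 lie on opposite sides of 0, which was no longer so once the length trend was removed. Sesn2 lies at -0.69 beside Sesn1 at 0.08, and Phlda1, Phlda2 and Btg1 lie to the right of 0.

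Of 20 paralogs of the members, 15 were tested, with a median log2 fold change of 0.20. Of these 15, 8 (53.3%) were called higher and 2 (13.3%) lower, beside 24.9% and 25.4% of all tested genes. Without uniSTING replicate 2, 3 were lower (median 0.31), and without Mock replicate 2, 1 was (median 0.31). For the p53 family itself, Trp63 had no count in uniSTING and 6 in Mock, a mean of 0.147 CPM in Mock. Trp73 had none in either group. Where a group had no count, up to 0.0688 CPM in uniSTING and 0.0755 CPM in Mock remain possible (3 counts over the group, counting error only). Zmat4 had no count in uniSTING and 2 in Mock. The 5 paralogs that were too low for the test were Trp63, Trp73, Cdkn1c, Zmat4 and Btg4.

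Levels of the members were compared per kilobase of exon, since longer transcripts gather more counts. In uniSTING the order was Ccng1 (24.3 CPM per kilobase), Mdm2 (21.1), Gadd45a (17.5), Phlda3 (15.6), Trp53 (13.9), Sesn1 (4.02), Cdkn1a (3.45), Zmat3 (2.64), Btg2 (1.37) and Trp53inp1 (0.543), and no neighbours in this order overlapped between their 2 libraries. In Mock, Ccng1 also led, at 19.6 CPM per kilobase. Gadd45a (17.0), Trp53 (15.9), Phlda3 (14.99) and Mdm2 (14.97) followed it in Mock, and the ranges of neighbours among these 4 overlapped. Sesn1 (3.79) came after them in Mock, then Zmat3 (3.37) and Cdkn1a (3.30), which overlapped, and at the end Btg2 (0.996) and Trp53inp1 (0.352). So Mdm2 ranked 2 in uniSTING and 5 in Mock. Trp53 stood at percentile 70.2 of all tested genes per kilobase in uniSTING and 73.3 in Mock, and Cdkn1a at 37.2 in uniSTING and 35.7 in Mock. Exon length here is that of all annotated exons merged, which can exceed the transcript that the cells use. It also includes bases shared with another gene, 19.1% for Gadd45a and 7.68% for Cdkn1a. Whether reads over those bases were counted was not tested. The places of these genes, and of those near them such as Mdm2 and Ccng1, are therefore less secure.

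**Figure D3:**
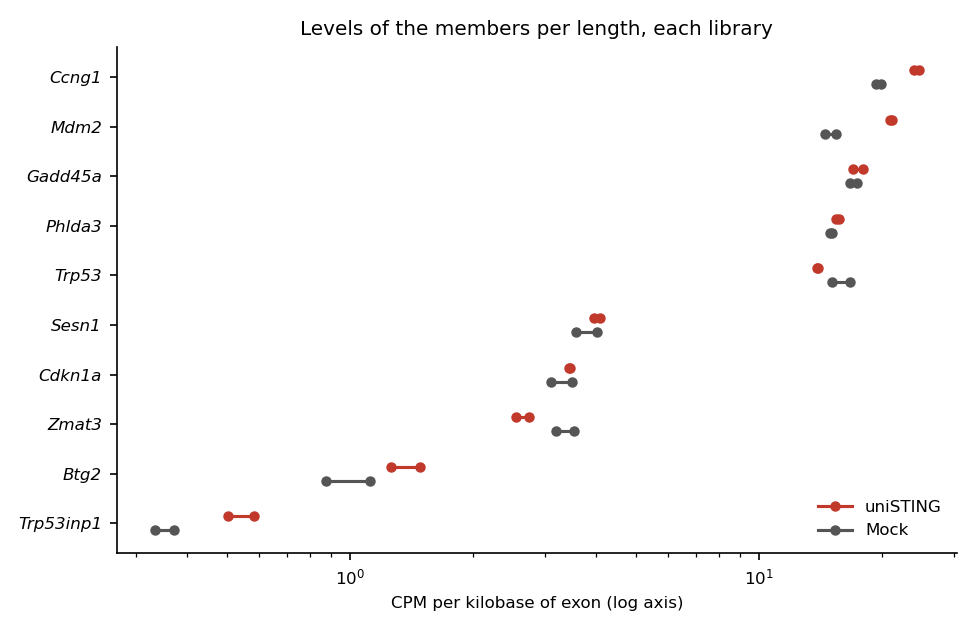
Level of each member in CPM per kilobase of exon (log axis), each library a point, uniSTING in red above Mock in grey. Ccng1 and Mdm2 lead in uniSTING at 24.3 and 21.1, and 5 genes from Sesn1 down lie under 5 in both groups.

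Of 22 tested genes that act on p53 (Mdm4 among them, which is also a paralog), 13 fell and 6 rose (median -0.22 on the log2 scale), beside 25.4% lower and 24.9% higher among all tested genes. With the trend on gene length removed 8 fell and 5 rose (median -0.06), and with length and GC trends removed 9 fell and 5 rose (median -0.09). Huwe1, a ubiquitin ligase gene, had 134 and 140.2 CPM in uniSTING and 260.2 and 255 CPM in Mock, a fall by 0.91 (SE 0.03). Usp7, which encodes a deubiquitinase of MDM2 and p53, fell by 0.38. The damage kinase genes Atm and Atr, named after their values were seen, fell by 0.57 and 0.56. Rpl5 and Rpl11, ribosomal proteins that can bind MDM2 and block it, rose by 0.46 and 0.43. Such rises were not limited to these genes among ribosomal protein genes. Rpl31 was at 0.47 and Rpl37a at 0.48, while Rpl7a was at -0.44, all named after their values were seen. After removal of the length trend, Huwe1 was at -0.47, Usp7 at -0.25, Atm at -0.38 and Atr at -0.12, the last of which no longer passed (adjusted p = 0.117). Cdkn2a, whose ARF product blocks MDM2, was not counted in any of the 4 libraries (it was named with its values known), which allows levels of up to 0.0688 CPM in uniSTING and 0.0755 CPM in Mock.

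Of 14 other tested p53 targets of arrest and repair, 2 (14.3%) rose and 1 (7.14%) fell (median 0.05). Among all tested genes 24.9% were higher and 25.4% lower. Rps27l, a ribosomal protein homologue that p53 induces, had 215 and 223 CPM in uniSTING and 129 and 130.2 CPM in Mock, a rise by 0.76 (SE 0.03) that was 0.37 with length and GC trends removed. The kinase gene Plk2 rose by 0.15 and the repair nuclease gene Ercc5 fell by 0.32, a call lost with DESeq2 (adjusted p = 0.0947), without uniSTING replicate 2 (adjusted p = 0.0694) and without Mock replicate 1 (adjusted p = 0.062). The repair gene Xpc did not pass (-0.16, adjusted p = 0.0792). The number of these genes that fell was 2 without uniSTING replicate 1, and 0 without uniSTING replicate 2, without Mock replicate 1 or with DESeq2. With the length trend removed 4 rose and 2 fell (median -0.02), and with length and GC trends removed 3 rose and 2 fell (median 0.0056). Without Mock replicate 2, 3 rose, and the median without uniSTING replicate 2 was 0.0019.

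Of 10 tested cell death genes, 5 (50%) rose and 2 (20%) fell (median 0.07), beside 24.9% higher and 25.4% lower among all tested genes. The death receptor gene Fas had 7.15 and 8.64 CPM in uniSTING and 4.54 and 5.16 CPM in Mock, a rise by 0.70 (SE 0.15, adjusted p = 0.00222). Tnfrsf10b, the mouse TRAIL receptor gene, rose by 0.30 and the desmosome-linked effector gene Perp by 0.23. Perp was at 0.07 with length and GC trends removed and no longer passed (adjusted p = 0.0767). Apaf1, the scaffold of the apoptosome, fell by 0.51. Without Mock replicate 1, as with DESeq2, 3 of these genes rose, and without Mock replicate 2, 1 fell (median 0.11; 0.03 without Mock replicate 1). With the length trend removed 4 rose and 4 fell, and with length and GC trends removed 3 rose and 2 fell. Bax (-0.008), Bbc3 (-0.11) and Aen (0.07), named after their values were seen, did not pass. Pmaip1, which encodes NOXA, was not counted in any of the 4 libraries (it was named with its values known).

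Of 11 tested metabolism and autophagy targets, Sesn2 included, 3 (27.3%) rose and 1 (9.09%) fell, beside 24.9% and 25.4% of all tested genes. The median of this list was 0.02. The median depended on single libraries, at -0.02 without uniSTING replicate 1, 0.13 without uniSTING replicate 2, 0.19 without Mock replicate 1 and 0.05 without Mock replicate 2. It was -0.05 with the length trend removed. The number that rose was 2 without uniSTING replicate 2 or without Mock replicate 1. Ddit4, which encodes the mTORC1 inhibitor REDD1 and also responds to hypoxia, had 416 and 400.5 CPM in uniSTING and 249 and 251 CPM in Mock, a rise by 0.71 (SE 0.02). Tigar, a regulator of glycolysis, rose by 0.29, and Pank1, a pantothenate kinase gene, rose by 0.22. With DESeq2, 1 gene of this list rose, and both of these calls were lost (adjusted p = 0.0716 for Tigar and 0.142 for Pank1), and that of Pank1 also without uniSTING replicate 2 (adjusted p = 0.259) and without Mock replicate 1 (adjusted p = 0.163).

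Downstream of p21, the partners it binds and the RB and DREAM complex genes through which it represses the cell cycle went both ways, with 9 of 21 tested higher and 6 lower (median 0.09, or 0.04 with the length trend removed). These are 42.9% higher and 28.6% lower, beside 24.9% and 25.4% among all tested genes. Cyclin D1 (Ccnd1) had 1007 and 981 CPM in uniSTING and 1328 and 1351 CPM in Mock, a fall by 0.43 (SE 0.02). Ccnd2, Cdk6 and E2f4 fell by 0.36, 0.59 and 0.19. After removal of the length trend, Cdk6 was at -0.30, Ccnd2 at -0.20 and E2f4 at -0.30, and all 3 still passed. The 4 genes of smallest p in this list all fell, though more of the list was called higher than lower. Lin37 rose by 0.72 and Ccne2 by 0.52 as counted, both named after their values were seen. Among 12 genes that p21 and DREAM are known to repress, 6 (50%) rose and 5 (41.7%) fell (median 0.06). Of all tested genes, 24.9% were higher and 25.4% lower. With the length trend removed 5 rose and 4 fell (median 0.01), and with length and GC trends removed 4 rose and 4 fell (median -0.03). Cenpf, a kinetochore gene, fell by 0.79 (SE 0.03), and by 0.47 with the length trend removed, while the mitotic kinase gene Plk1 fell by 0.31 and the survivin gene Birc5 rose by 0.24. Kif23, needed for cytokinesis, fell by 0.30, or by 0.18 with the length trend removed. Of the partner and complex genes, 5 rose without Mock replicate 1 or with DESeq2, and 6 without uniSTING replicate 1 or with no filter on low counts.

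**Figure D4:**
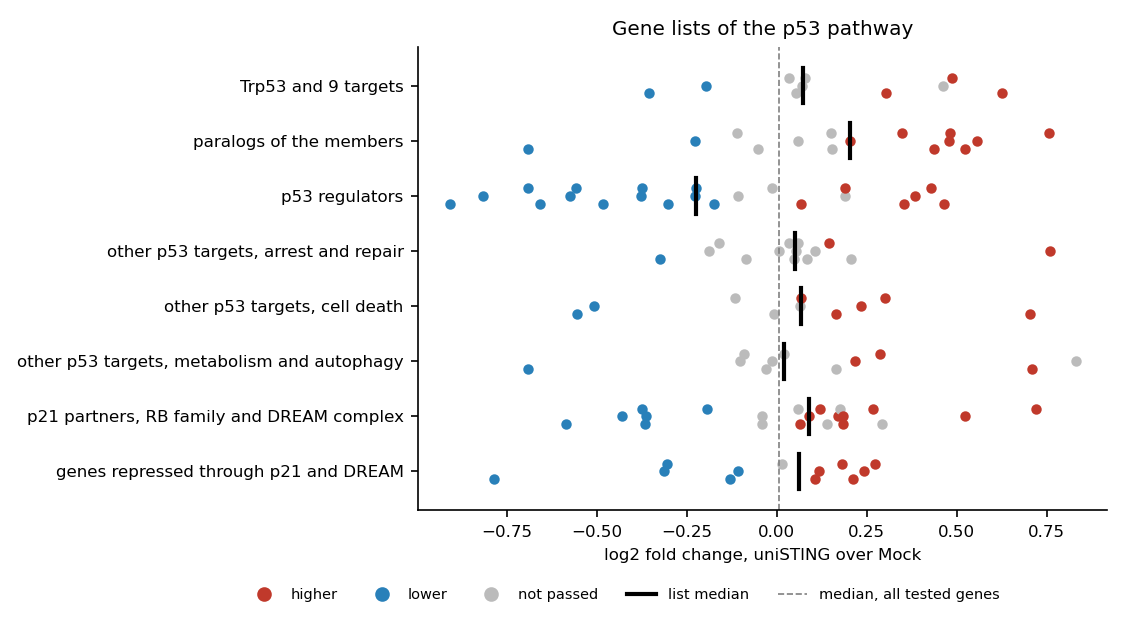
Log2 fold change of uniSTING over Mock for each tested gene of 8 lists of the p53 pathway, with genes that passed in red (higher) or blue (lower), the others in grey, list medians as black bars and the median of all tested genes as a dashed line. List medians lie between -0.22 (regulators, -0.06 with the length trend removed) and 0.20 (paralogs), and each list holds genes on both sides.

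Gene length and GC content moved some members more than others. With the length trend removed, Mdm2 was at 0.52, Ccng1 at 0.27, Trp53inp1 at 0.71 and Trp53 at -0.20, and these 4 still passed. The short genes Phlda3 and Gadd45a, positive as counted, were at -0.14 and -0.14 and did not pass. With length and GC trends removed, Mdm2 and Ccng1 were the members that passed as higher and Trp53 (-0.17, adjusted p = 0.0287) the member that passed as lower.

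**Figure D5:**
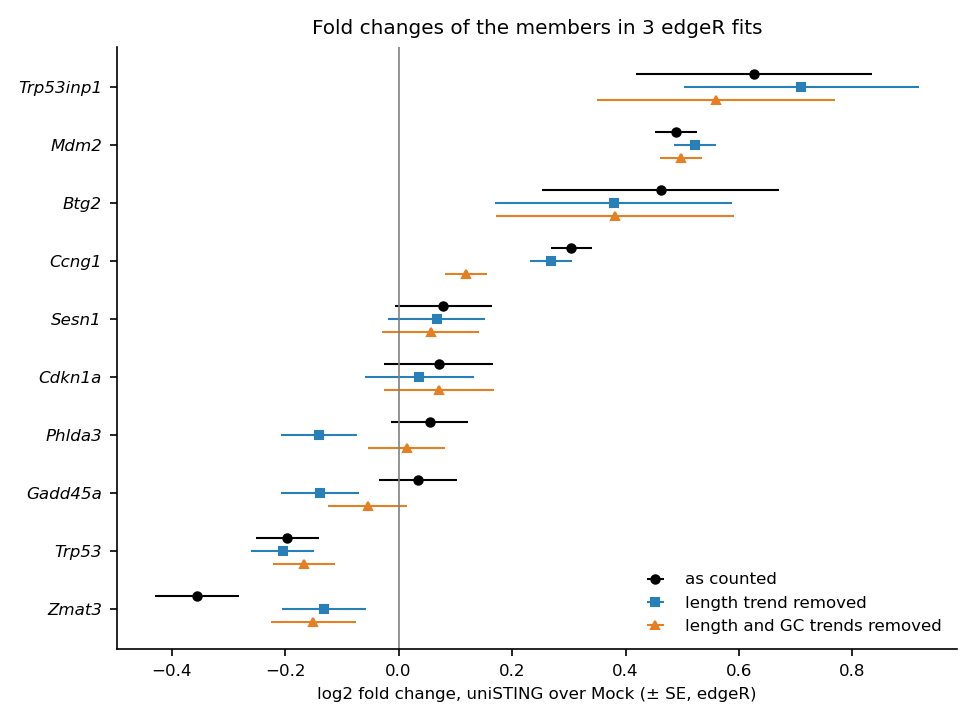
Log2 fold change of uniSTING over Mock (points, bars ± SE) for the 10 members in 3 edgeR fits, as counted, with the trend on exon length removed, and with trends on length and GC content removed. Mdm2 stays between 0.49 and 0.52, Zmat3 moves from -0.36 to -0.13 and -0.15, and Ccng1 drops to 0.12 in the last fit.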

How the data were processed

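RNA-seq of 4T1 cells (2 uniSTING and 2 Mock libraries) was deposited as raw counts per gene. Per the file headers, the authors made these counts with featureCounts 2.0.1 over exons of the Ensembl 103 annotation of GRCm39, in paired-end mode without a strand option, on uniquely mapped reads. Without strand, reads of a gene and of its antisense partner cannot be told apart. HISAT2 is named as aligner, per the submitters' processing notes, with no version. Symbols came from an identifier table that matched 52093 of 53647 genes.

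Counts were tested with edgeR 4.0.16 (R 4.3.3): TMM, expression filter (minimum count 10, total 15), glmQLFit and glmQLFTest on the group, Benjamini-Hochberg adjustment over all 12972 genes tested, threshold 0.05. The common coefficient of variation was 3.15%. Standard errors derive from the F statistic. CPM uses the TMM-scaled library size, and CPM per kilobase the deposited exon length (bases, made by the authors' featureCounts run). Fold changes of 1 replicate number use a prior count of 2. Alternatives were DESeq2 (1.42.0) or its size factors, limma-voom (3.58.1), other filters, the replicate block, leaving out each library, and removal of trends with exon length and GC content (lowess, span 0.3; GC content from reference transcripts by gene identifier, for 99.9% of tested genes). The edgeR fits were run on simulated counts with few changed genes, a common coefficient of variation and no replicate effect. That setting differs from these data, where 50.2% of tested genes passed, so it checks the code and not the error rates here.

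The members, gene lists and alternatives were chosen with earlier results of these data known. Named are all members, their paralogs with a count, from each other list the 4 genes of smallest p at most, and the 3 genes nearest to Trp53 in profile, unless said otherwise. Promoter sequences are from RefSeq (GRCm38.p6), and none of their coordinates was set against those of the counts.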

Additional observations from a re-analysis of the deposited data

How the results depend on the processing

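Of 120 values of the 10 members under 12 alternatives, 106 kept their direction and side of the threshold. Mdm2 and Ccng1 kept theirs in all 12. With DESeq2, Trp53inp1 was at 0.63 and no longer passed. With the length trend removed, Zmat3 was at -0.13 and no longer passed, Phlda3 (-0.14) and Gadd45a (-0.14) changed sign without passing, and 1 member was lower. With length and GC trends removed, Zmat3 (-0.15) and Trp53inp1 (0.56, adjusted p = 0.05) no longer passed, Gadd45a was at -0.054, and 1 member was lower. Leaving out each library in turn gave -0.27 to -0.12 for Trp53, 0.51 to 0.73 for Trp53inp1, -0.022 to 0.15 for Cdkn1a, -0.0013 to 0.073 for Gadd45a, -0.010 to 0.17 for Sesn1, and 1 to 2 members lower. Among paralogs, it gave -0.031 to 0.15 for Gadd45g, -0.28 to 0.031 for Tob2 and -0.10 to 0.49 for Zmat1. Mdm4 was at 0.074 and Gadd45g at -0.17 with the length trend removed, and Tob2 at 0.03 and Gadd45g at -0.010 with length and GC trends removed. The causes were not tested. Over all alternatives, 2159 to 3377 genes were higher and 2358 to 3403 lower.

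The replicate numbers of the 2 groups are shared in the labels but not said to mark a shared batch. The deviations of the replicate 1 libraries from their group means had a correlation of 0.531 over 7970 genes. With the replicate block, 3 members were higher and 2 lower, the same counts as without it, and Sesn3 passed (0.15, adjusted p = 0.0296).

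Scarce genes limit the precision. Trp53inp1 and Btg2 had 38 to 94 counts per library, with standard errors of 0.21, against 0.04 for Mdm2. A change of the size of that of Ccng1 as counted (0.30) lies inside the 95% interval of neither Cdkn1a, Sesn1, Phlda3 nor Gadd45a, though that of Cdkn1a ends close by, at 0.28. With length and GC trends removed Ccng1 was at 0.12, a size that lies inside each of these intervals as counted.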
